A study of Mus musculus with 16 samples.

Results

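The control blastocysts of a mouse study that also treated blastocysts with the kinase inhibitors SB203580, SP600125 or U0126 were described on their own, as the transcriptome against which inhibitor-treated embryos of that study can be read. They comprised 3 of the 12 samples and 4 of the 16 arrays, chosen by their labels alone. Control blastocysts have no treatment named in the labels, carry the tag WT in their titles, and are not stated to have received the solvent of the inhibitors. RNA of control 1 went through the small sample assay and was split over a 430A and a 430B array, while that of controls 2 and 3 went through the two-cycle assay and was read on a 430 2.0 array each. The labels do not say that the controls were separate cultures, how many embryos each held, or which strain and age they had. No treated sample entered any value below.

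A blastocyst has an outer epithelium, the trophectoderm, which pumps fluid into a cavity and later forms the placenta. It encloses an inner cell mass that separates into epiblast, the source of the fetus, and primitive endoderm, which lines the cavity and forms yolk sac. By this stage most maternal transcripts of the oocyte have been degraded and the embryo runs on its own transcription.

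Each array reports a signal intensity per probe set on a linear scale. Every gene was given its brightest probe set among those naming that gene alone, which yielded 12393 genes on 430A, 9607 on 430B and 18193 on 430 2.0. A gene's percentile is the share of the other genes on the same array with a lower signal, and the percentile on the 430 2.0 arrays comes from the mean log2 signal of controls 2 and 3. Signal depends on the probe set as well as on the transcript, so these ranks order signals and not mRNA abundance. The median probe set signal was 147.4 on 430A and 223.8 on 430B in control 1, against 61.1 and 65.7 on 430 2.0 in controls 2 and 3, although all 4 arrays had been scaled to the same trimmed mean. Actin probe sets at the 3′ end over those at the 5′ end, which reflect labelling length and RNA quality, gave ratios of 2.47 and 2.19 on the 430A and 430B arrays of control 1, against 1.70 and 1.58 in controls 2 and 3. Signals of control 1 are those of the 430A array unless 430B is named.

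The brightest gene of the control blastocysts was Lgals1, which encodes galectin-1, a secreted lectin that binds galactosides. Its signal was 19266 in control 1, 50521 in control 2 and 59168 in control 3, and it was the brightest gene of both 430 2.0 arrays and stood at rank 8 on 430A. Uqcrb, a subunit of respiratory complex III, came next with 19277 in control 1, 47065 in control 2 and 48744 in control 3. The ribosomal protein genes Rps29, Rplp2 and Rps18 followed, then the keratin gene Krt18, the cytoplasmic actin gene Actg1 and the pluripotency-associated gene Dppa5a. The 25 brightest genes held 12 of the ribosome, named below, and also Eef1a1, the elongation factor that brings aminoacyl-tRNA to the ribosome (22166, 39893 and 44195 in controls 1, 2 and 3). Tpt1, the translationally controlled tumour protein, had signals of 21311, 35635 and 40756 in controls 1, 2 and 3.

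The remaining genes among these 25 had varied roles. Hspa8, the constitutive Hsc70 chaperone, had signals of 16625, 38408 and 43631 in controls 1, 2 and 3. H2az1, a histone variant, had 15462, 40570.4 and 39563 in controls 1, 2 and 3. Mt1, a metallothionein that binds zinc and copper, had 20093, 39609 and 39748 in controls 1, 2 and 3. These genes stood beside Serbp1, an RNA-binding protein found on ribosomes, Fabp3, a fatty acid binding protein first known from heart muscle, and Tmsb10, a thymosin that binds actin monomers. Fabp3 had 13424, 36568 and 39599 in controls 1, 2 and 3, Serbp1 had 11085, 35169.6 and 41764, and Tmsb10 had 13272, 37455 and 38431. For every one of the 25 genes the 2 arrays of 430 2.0 type lay above the 430A array on the signal scale. This could not have come out otherwise, since no probe set on 430A exceeded 25002.

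**Figure D1:**
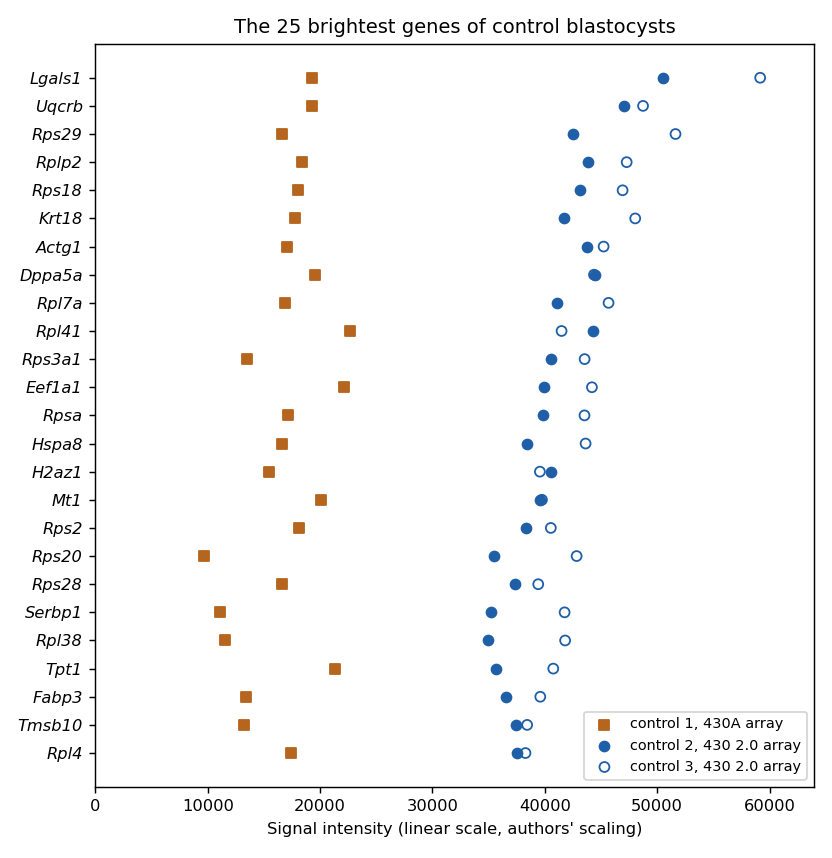
Signal intensity (linear scale, as scaled by the authors) of the 25 brightest genes by mean log2 signal on the 430 2.0 arrays, brightest at the top. Squares are control 1 on the 430A array, filled and open circles are controls 2 and 3 on 430 2.0 arrays. Lgals1 reaches 50521 and 59168 on the 430 2.0 arrays. All 25 genes are dimmer on 430A in absolute signal, where no probe set exceeds 25002.

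Membership of this bright group was largely shared with the 430A array, while the order within it was not resolved. Of the 25 genes, 21 were among the 25 brightest of control 2 and 22 among those of control 3. The genes were picked by the mean of controls 2 and 3, so these 2 counts are partly built in. All 25 were measured on 430A, where 18 were among the 25 brightest and 24 among the 100 brightest. The exception to the last count was Rps20, whose 430A signal was 9641, against 35458 and 42834 in controls 2 and 3. Of the 24 pairs of neighbours in the order, only 1 differed by more than 0.11 on the log2 scale, the median absolute difference between the 2 replicates among these genes. The 100 brightest genes held 14.4% of the summed gene signal in control 2 and 15.3% in control 3, and the 1000 brightest held 55.7% and 56.9%.

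The 430A array put Rpl41 (22629), Eef1a1 (22166) and Mt2 (22056), another metallothionein, at its top. Of its 25 brightest genes, 7 were not among the 25 brightest of 430 2.0, namely Mt2, C1qbp, Slc25a3, Rps3, Hsp90aa1, Actb and Rps4x. C1qbp, a mitochondrial matrix protein, had 16962, 33178 and 31476 in controls 1, 2 and 3. Slc25a3, the mitochondrial phosphate carrier, had 16921, 29486 and 25236 in controls 1, 2 and 3. Hsp90aa1, the inducible cytosolic Hsp90, had 16339, 35553 and 40363 in controls 1, 2 and 3. Actb, the other cytoplasmic actin, had 16142, 35242 and 39080 in controls 1, 2 and 3. The lowest of these 7 on the 430 2.0 arrays, Slc25a3, still ranked 81 among 18193 genes.

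The 430B array carries probe sets that its partner does not, and its signals are on another scale. For the 100 probe sets present on both arrays of control 1, the 430B signal was a median of 5.84 times the 430A signal, with a range of 3.80 to 11.6. Its brightest gene was Khdc3, a member of the maternal complex beneath the oocyte cortex, with a 430B signal of 73301, against 21645 and 23074 in controls 2 and 3. Trim28, the corepressor that holds endogenous retroviruses and imprinted loci in silent chromatin, followed with a 430B signal of 69118, against 13559 and 15306 in controls 2 and 3. Rpl22, a ribosomal protein gene, had 68626 on 430B and 34329.9 and 34674 in controls 2 and 3. Next came Sf1, which recognises the branch point in splicing (62524 on 430B), Myh10, a nonmuscle myosin heavy chain (61064 on 430B), and Psap, the precursor of lysosomal saposins (56179.6 on 430B). All 25 of the brightest genes of 430B lay above the 90th percentile of the 430 2.0 arrays, with the serine protease gene Tmprss2 the lowest (91.1).

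Ribosomal proteins, cytosolic chaperones, the cytoskeleton and the respiratory chain had the highest median percentiles of the functional lists. The share of the summed signal held by each function was not computed. Ribosomal protein genes made up 26 of the 100 brightest genes on 430A and 31 of the 100 brightest on the 430 2.0 arrays. Of the 50 measured, 41 lay above the 90th percentile, where by definition 10% of all genes lie, and their median signal was 29957, against 122.9 over all genes. Rps29, of the small subunit, had signals of 16569, 42502 and 51634 in controls 1, 2 and 3. Rplp2, an acidic stalk protein, had 18397, 43820.3 and 47288 in controls 1, 2 and 3. The other 10 ribosomal protein genes among the 25 brightest were Rps18, Rpl7a, Rpl41, Rps3a1, Rpsa, Rps2, Rps20, Rps28, Rpl38 and Rpl4. Their signals ran from 34938 (Rpl38 in control 2) to 46926 (Rps18 in control 3) on the 430 2.0 arrays.

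Only 3 of the 50 were below the median of all genes, and 2 of these also had bright probe sets that name several genes. Rpl3l, the striated muscle form of Rpl3, had signals of 21.4, 5.3 and 3.2 in controls 1, 2 and 3. Rps16 and Rps27 were looked at after their values were seen. Rps16 had 9.1 and 5.1 in controls 2 and 3 by the probe set naming it alone, while the 2 probe sets that name it together with Rps16-ps2 and another locus had 37204 and 41023 in control 2 and 39835 and 43191 in control 3. Rps27 had 38.2 and 129 in controls 2 and 3 by its own probe set, while the probe set it shares with Rps27rt had 26182 in control 2 and 29569 in control 3. Of the 200 brightest probe sets, 114 named 1 gene and 66 more than 1, while the annotation used gave no gene for 20. Of the 66, 57 included a ribosomal protein gene, so the share of ribosomal protein genes given here leaves out probe sets that cannot be assigned.

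Translation factors and related genes were also bright. Among 53 measured genes of this list, 37 lay above the 90th percentile, 7 were among the 100 brightest genes and the median percentile was 95.2. The list was drawn by gene name and also counts Tpt1 and regulators of such factors. Eef1a1 and Tpt1 led the group, and Eif4a3, here read by 1 probe set, was its dimmest member (3.5 and 29.7 in controls 2 and 3). Ribosome assembly genes had a median percentile of 92.5, with 14 of 23 above the 90th. Npm1, the nucleolar chaperone nucleophosmin, had 10964, 29910 and 33440.1 in controls 1, 2 and 3. Ncl, nucleolin, had 4719, 15475 and 19864 in controls 1, 2 and 3. The dimmest of the 23 was Rrp12 (271, 619 and 604 in controls 1, 2 and 3), still at percentile 69.9. Splicing factors had a median percentile of 94.4 and 35 of 48 above the 90th. In controls 1, 2 and 3, Hnrnpab led with 8929, 25826 and 30262, followed by Hnrnpc with 13404, 25776 and 22636. Both encode proteins that coat nascent RNA. Srsf12 was at the bottom (1.8 and 2.2 in controls 2 and 3).

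Mitochondrial energy genes formed another large group. Of 79 measured genes of the respiratory chain and ATP synthase, 66 lay above the 90th percentile, 10 were among the 100 brightest and the median percentile was 97.3. Behind Uqcrb came Cox7a2, a subunit of cytochrome c oxidase (13788, 32835 and 36608 in controls 1, 2 and 3). The dimmest was Cox8b, a form known from heart and skeletal muscle (15.3, 3.4 and 9.9 in controls 1, 2 and 3). The tricarboxylic acid cycle had a median percentile of 97.2 with 15 of 19 above the 90th. Mdh2, mitochondrial malate dehydrogenase, had 8659.7, 23698 and 28868 in controls 1, 2 and 3. Sucla2, a subunit of succinate-CoA ligase, had 4303, 14272 and 12103 in controls 1, 2 and 3, and the dimmest member was Ogdh (555, 1240.4 and 1179 in controls 1, 2 and 3), of the oxoglutarate dehydrogenase complex. Genes of the mitochondrial genome were not measured by probe sets assigned here.

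The glycolysis list stood lower, with a median percentile of 84.0 and 6 of 18 genes above the 90th. Of its 21 genes 18 were measured, and glucose and lactate transporters count among them. Its median is thus not that of all enzymes of the pathway. Its brightest member was Slc2a3, a high-affinity glucose transporter (13946, 20038 and 21614 in controls 1, 2 and 3), followed by the aldolase gene Aldoa (9400.3, 18524 and 20311 in controls 1, 2 and 3). The lactate transporter gene Slc16a3 was its dimmest (17.4, 24.7 and 30.7 in controls 1, 2 and 3), at percentile 25.7. Of the 100 brightest genes, glycolysis had 1 on 430A and 0 on 430 2.0, and the tricarboxylic acid cycle had 0 on 430A and 1 on 430 2.0.

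**Figure D2:**
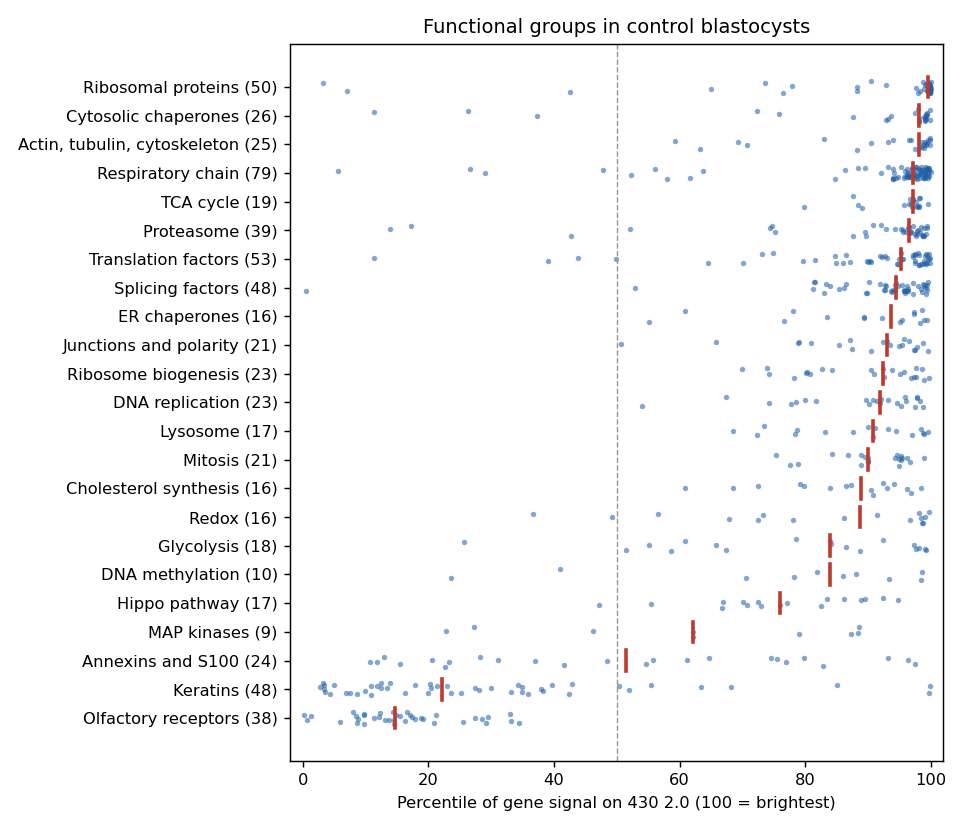
Percentile of each measured gene on the 430 2.0 arrays (points, 1 per gene, spread vertically for legibility) in 23 functional groups, with the number of measured genes in brackets. Red bars are group medians, from 99.7 for ribosomal proteins to 14.7 for olfactory receptors, and the dashed line marks the median of all genes.

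Protein folding and degradation followed the same pattern. Cytosolic chaperones had a median percentile of 98.1, with 20 of 26 above the 90th. Hspa8 led the group and Hsp90aa1 followed, while Cct8l1 was the dimmest (6.0 and 17.0 in controls 2 and 3). The proteasome had 29 of 39 genes above the 90th percentile and a median percentile of 96.6, but none among the 100 brightest. Psma6 had 7503, 23145 and 25458 in controls 1, 2 and 3, and Psmb4 had 6365, 22908 and 23522, both subunits of the core particle. Psmb8, a catalytic subunit of the immunoproteasome, was the dimmest (21.7, 12.8 and 11.5 in controls 1, 2 and 3). Chaperones of the endoplasmic reticulum had a median percentile of 93.6, led by Hspa5, known as BiP (9642, 24346 and 21537 in controls 1, 2 and 3), and Ppib (5236, 19012 and 17560.1 in controls 1, 2 and 3), with Sdf2l1 the dimmest (201, 182 and 200.4 in controls 1, 2 and 3).

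The cytoskeleton and the cell junctions of an epithelium were bright. Genes of actin, tubulin and their partners had a median percentile of 98.1, with 19 of 25 above the 90th. Actg1 had signals of 17033, 43716 and 45235 in controls 1, 2 and 3. The dimmest of the 25, Myl6, had 272, 233 and 331 in controls 1, 2 and 3 by the single probe set naming it alone. Junction and polarity genes had a median percentile of 93.0, with 13 of 21 above the 90th. Ctnna1, alpha-catenin, had 10403, 25990.3 and 29170.5 in controls 1, 2 and 3. Ctnnb1, beta-catenin, had 4156, 18560.5 and 13790.5 in controls 1, 2 and 3. Jup, plakoglobin, was the dimmest of this group (167, 121 and 142 in controls 1, 2 and 3).

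Keratins divided sharply. Krt18 and Krt8, which pair in the filaments of simple epithelia, were among the 100 brightest genes, and 40 of the 48 measured keratin genes lay below the median of all genes. The median percentile of the keratins was 22.2. The dimmest, Krt76, had 4.3 and 3.4 in controls 2 and 3. Annexins and S100 proteins, which bind calcium, also spread widely, with a median percentile of 51.5. Anxa2 (4762, 11373 and 10022 in controls 1, 2 and 3) and its partner S100a10 (1676, 7596 and 7382 in controls 1, 2 and 3) were at the top and S100a3 (20.4, 35.9 and 2.6 in controls 1, 2 and 3) at the bottom.

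Cell cycle genes had a high signal. DNA replication genes had a median percentile of 92.0 with 15 of 23 above the 90th, and mitotic genes a median of 90.1 with 11 of 21. Pcna, the sliding clamp, had 7445, 17599 and 15595 in controls 1, 2 and 3. Mcm7, of the replicative helicase, had 6978, 13188 and 13345 in controls 1, 2 and 3, and Tyms, thymidylate synthase, was the dimmest (52.5, 198 and 155 in controls 1, 2 and 3). Cdc20, an activator of the anaphase-promoting complex, had 5626, 17927 and 16831 in controls 1, 2 and 3. Its partner enzyme Ube2c had 2834, 7439 and 9128 in controls 1, 2 and 3, and Kif11, a spindle motor, was the dimmest of the mitotic list (512, 792 and 997 in controls 1, 2 and 3). Histone and HMG protein genes, of which 10 of 18 were measured, had a median percentile of 88.9, from H2az1 and the nucleosome-binding Hmgn1 (11101, 30693 and 32394 in controls 1, 2 and 3) to H1f4 (9.0, 62.9 and 105 in controls 1, 2 and 3).

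Lysosome, sterol, redox and metal genes lay in the upper range. Lysosomal genes had a median percentile of 90.9, led by Psap (10631, 28139 and 30941 in controls 1, 2 and 3) and Lamp1 (9460, 15789 and 18563 in controls 1, 2 and 3), with Gusb the dimmest (295, 534 and 585 in controls 1, 2 and 3). Cholesterol synthesis genes had a median of 88.9. Hmgcs1, the cytosolic enzyme that makes HMG-CoA, had 4358, 14692 and 12951 in controls 1, 2 and 3. Fdft1, squalene synthase, had 1922, 8217 and 8922 in controls 1, 2 and 3, and the desaturase gene Sc5d was the dimmest (148, 361 and 267 in controls 1, 2 and 3). Redox genes had a median of 88.8, with Txn1, thioredoxin (10168, 28626 and 33241 in controls 1, 2 and 3), and Sod2, the mitochondrial superoxide dismutase (10677, 20773 and 19058 in controls 1, 2 and 3), at the top and Nqo1 at the bottom (88.6, 51.4 and 48.8 in controls 1, 2 and 3). Of 7 iron and metal genes, Mt1 and Mt2 were among the 100 brightest on both 430A and 430 2.0, and Slc11a2, an iron transporter, was the dimmest (632, 392.1 and 453 in controls 1, 2 and 3).

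The groups tied most closely to blastocyst development were less uniform. Genes of fluid transport for the cavity had a median percentile of 80.4, and 3 of 10 were below the median of all genes. Of the sodium pump subunits, Atp1b1 had 5871, 7529.5 and 6834 in controls 1, 2 and 3, and Atp1b3 had 3237, 4254 and 3477. The chloride channel gene Cftr had 37.8, 18.4 and 12.5 in controls 1, 2 and 3. Hippo pathway genes, which in the early embryo tie cell position to trophectoderm fate, had a median percentile of 76.0. Yap1, the coactivator that this pathway restrains, had 2711, 6138 and 5019.7 in controls 1, 2 and 3. Amot, a junctional regulator of it, had 1982, 4572 and 3376 in controls 1, 2 and 3, while Tead3, a DNA-binding partner, was the dimmest (289.7, 75.9 and 125.9 in controls 1, 2 and 3).

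DNA methylation genes had a median percentile of 83.9. The de novo methyltransferase gene Dnmt3b had 5933, 13635 and 16916 in controls 1, 2 and 3, and Trim28 had 8569, 13559 and 15306 in controls 1, 2 and 3. Tet3, the dioxygenase of the zygote, was the dimmest (12.9 and 45.1 in controls 2 and 3). The MAP kinases and MAP kinase kinases, the families whose inhibitors the wider study used, had a median percentile of 62.2, with none of 9 above the 90th. Map2k1, which encodes MEK1, had 1536, 2822 and 2365 in controls 1, 2 and 3. Mapk14, p38 alpha, had 1536, 2939 and 2248 in controls 1, 2 and 3, and Mapk11, p38 beta, had 45.4, 12.7 and 41.1 in controls 1, 2 and 3. Olfactory receptor genes, which the embryo is not known to use, had a median percentile of 14.7 and all 38 lay below the median of all genes. The brightest of them was Olfr1508 (26.3, 55.1 and 35.4 in controls 1, 2 and 3), ahead of Olfr15, and Olfr68 was the dimmest (56.6, 1.8 and 1.4 in controls 1, 2 and 3).

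Of the 100 brightest genes, 32 belonged to none of these lists. They included Lgals1, Serbp1 and Fabp3, and Cox4i1, a cytochrome c oxidase subunit that the name rule for the respiratory chain missed.

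A yardstick for a dim signal came from 43 measured genes restricted to adult tissues such as muscle, liver, lens and brain. The 95th percentile of their signals was 219 on 430A in control 1, against 409 and 322 on 430 2.0 in controls 2 and 3. Over all 18193 genes, 35.4% exceeded this level on both 430 2.0 arrays. Of the 12393 genes on 430A, 6084 (49.1%) exceeded the level there, so passing it on 430A sets a gene apart less. As the 95th percentile of 43 genes, the level leaves 3 of them above it on each array by construction. It therefore rests on the few brightest of these genes. On both 430 2.0 arrays the same 3 genes lay above it. Mbp, which encodes myelin basic protein and is also transcribed as part of a longer gene, had 958, 1212 and 1154 in controls 1, 2 and 3. Crygd, a lens crystallin, had 147, 463 and 458 in the same controls. Krt10, a keratin of the epidermis, had 214, 435 and 331. A level under this yardstick cannot be told from that of genes with no known use at this stage.

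Markers of all 3 blastocyst lineages were measured above this level. In whole embryos, fewer cells of a type and less RNA per cell cannot be told apart. Of 21 measured trophectoderm markers, 18 exceeded the adult tissue level on 430A and 18 on both 430 2.0 arrays. Of 22 epiblast and inner cell mass markers, 18 of the 21 that 430A carries did so there, and 18 of 22 on both 430 2.0 arrays. Of 25 primitive endoderm markers, 19 of 24 did so on 430A, and 16 of 25 on both 430 2.0 arrays. The median percentiles of the 3 lists were 90.5, 79.4 and 80.8 on 430A and 93.3, 83.0 and 82.1 on 430 2.0, so the order of epiblast and primitive endoderm differed between array types. With the mean of all probe sets of a gene on 430 2.0, the medians of trophectoderm and epiblast both came to 89.6.

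**Figure D3:**
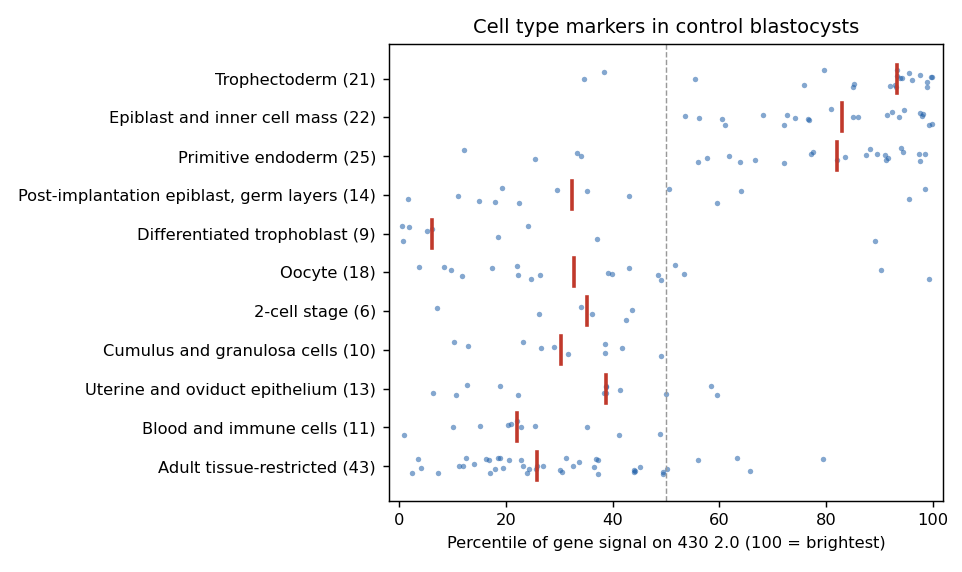
Percentile of each measured marker gene on the 430 2.0 arrays (points, 1 per gene) in 11 cell type lists, with the number of measured genes in brackets, list medians as red bars and the median of all genes as a dashed line. The 3 blastocyst lineages at the top have medians from 82.1 to 93.3, and the lists below them have medians from 6.12 to 38.7. The lowest of these was 12.6 or 17.7 with a single replicate, and the highest was 18.2 with the mean of all probe sets of a gene.

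The keratin genes Krt18 and Krt8 were the brightest of the trophectoderm markers. Krt18 had signals of 17777 in control 1, 41691 in control 2 and 48048 in control 3, and Krt8 had 13196 in control 1, 33756 in control 2 and 37883 in control 3. Both keratins were in the 100 brightest genes of the 430A array and of the 430 2.0 arrays. Krt7, a further simple keratin, was lower (902, 1925 and 1831 in controls 1, 2 and 3), and Krt19, which pairs with it in other epithelia, was under the adult tissue level in all 3 controls (115, 214 and 181 in controls 1, 2 and 3). The tetraspanin gene Tspan8 (6444, 18817 and 18404 in controls 1, 2 and 3) and the tight junction gene Cldn4 (1967, 3870.4 and 4669 in controls 1, 2 and 3) were well above it. Aqp3, an aquaporin, had 939, 1393 and 1025 in controls 1, 2 and 3.

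Transcription factors of the trophectoderm were bright with 2 exceptions. Cdx2, the homeobox factor required to keep trophectoderm fate, had 1857 in control 1, 3740.4 in control 2 and 5309 in control 3. Eomes, the T-box factor of trophoblast stem cells, had 3189.5 in control 1, 7197 in control 2 and 5562 in control 3. Gata3, a factor that acts beside Cdx2, had 3367 in control 1, 6122 in control 2 and 4148 in control 3. Id2, an inhibitor of basic helix-loop-helix factors, was the brightest of these regulators on 430 2.0 (3328, 15312 and 21358 in controls 1, 2 and 3), and Klf5 was the brightest on 430A (8017, 11653 and 9982 in controls 1, 2 and 3). Elf5, a trophoblast stem cell factor, had 2770, 5676 and 3439.5 in controls 1, 2 and 3. In controls 1, 2 and 3, the AP-2 factor gene Tfap2c had 1275, 4597 and 5198, its relative Tfap2a had 1603, 4447 and 4266, and Gata2 had 1615, 1748 and 2093. Fgfr2, the receptor for FGF4 on these cells, had 2336, 3892 and 3579 in controls 1, 2 and 3. Tead4, the DNA-binding partner of YAP that acts upstream of Cdx2, was lower than these (623, 1087 and 789.6 in controls 1, 2 and 3). Hand1, a factor of trophoblast giant cells, had 147, 122 and 16.5 in controls 1, 2 and 3, and Esx1, a placental homeobox factor, had 35.4, 69.1 and 43.8 in controls 1, 2 and 3. Both lay under the adult tissue level in all 3 controls.

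Among epiblast and inner cell mass markers, the brightest was Dppa5a, an RNA-binding protein of pluripotent cells, with 19539 in control 1, 44505 in control 2 and 44379 in control 3. Fbxo15, an F-box gene that POU5F1 and SOX2 control in stem cells, had 9009, 20864 and 22407 in controls 1, 2 and 3. Dppa3, also called Stella and supplied by the oocyte as well, had 5529, 13055 and 13236 in controls 1, 2 and 3, and Zfp42, known as REX1, had 3424, 11052 and 13045 in controls 1, 2 and 3. Sall4, a zinc finger factor, had 4593, 10219 and 12011 in controls 1, 2 and 3. The core pluripotency factors were dimmer than these markers. Pou5f1, which encodes OCT4, had 905 in control 1, 3363 in control 2 and 3621 in control 3. Nanog had 1111 in control 1, 1764 in control 2 and 2376 in control 3, and Sox2 had 448 in control 1, 1846 in control 2 and 1922 in control 3. All 3 were above the adult tissue level in every control.

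The other members of that list covered a wide range. Tdgf1, the Nodal coreceptor, had 1058, 5350.5 and 5504 in controls 1, 2 and 3. In controls 1, 2 and 3, the Krüppel-like factor gene Klf4 had 1321, 4339 and 4969 and Dppa4 had 2128, 3812 and 3976. Fgf4, the ligand that the epiblast sends to the other 2 lineages, had 441, 719.6 and 727 in controls 1, 2 and 3, at percentile 72.2 on 430 2.0. Of the signalling genes, Bmp4 had 650.3, 1103 and 623 in controls 1, 2 and 3, and Gdf3 had 564, 1021 and 937. Of the transcription factor genes, Tbx3 had 804, 1319 and 1294 in controls 1, 2 and 3, Utf1 had 1668, 549 and 1015, and Spic had 138, 429 and 703. Utf1 was the only one of these to be highest on 430A. Morc1, a gene known for silencing of transposons in the male germ line, had 385, 1181 and 821 in controls 1, 2 and 3. The remaining 4 members did not exceed the adult tissue level on both 430 2.0 arrays. Klf2 had 279.8, 313 and 292 in controls 1, 2 and 3, Esrrb, an orphan nuclear receptor of stem cells, had 122, 198 and 227, and Nr0b1 had 101, 133 and 212. On 430A, Klf2 exceeded the level of 219 in control 1. Prdm14, a repressor of differentiation genes, had 399 and 249 in controls 2 and 3.

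Primitive endoderm regulators ranged from bright to dim. Of the factors known to come early, Gata6 was at 2719.6 in control 1, 4895 in control 2 and 5088 in control 3, and Sox17 at 1388 in control 1, 3571 in control 2 and 3341 in control 3. Pdgfra, a receptor that marks the lineage, had 684, 2548 and 2461 in controls 1, 2 and 3. Of the factors known to follow them, Gata4 had 302, 246 and 172 in controls 1, 2 and 3, and Sox7 had 329, 401 and 602. Neither exceeded the adult tissue level on both 430 2.0 arrays. The same was true of Foxa2 (405, 338 and 328 in controls 1, 2 and 3) and Hnf4a (206, 229 and 258 in controls 1, 2 and 3). On 430A, in contrast, Gata4, Sox7 and Foxa2 exceeded the level of 219 in control 1, and Hnf4a did not. Apoa1 had 209, 605 and 257 in controls 1, 2 and 3. Afp (58.0, 43.0 and 40.2 in controls 1, 2 and 3) and Ttr (21.0, 36.3 and 19.8 in controls 1, 2 and 3), secreted products of visceral endoderm after implantation, lay below the median of all genes, as did Cited1 (17.7, 33.9 and 56.2 in controls 1, 2 and 3) and Rspo3 (26.9 and 4.3 in controls 2 and 3).

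The 3 brightest members of that list on 430 2.0 were the endocytosis genes Dab2 and Lrp2 and the laminin gene Lamb1, while other genes of endocytosis and basement membrane lay among and below the regulators Gata6, Sox17 and Pdgfra. Dab2, an endocytic adaptor, had 11232 in control 1, 14735 in control 2 and 14571 in control 3. Lrp2, Cubn and Amn encode megalin, cubilin and amnionless, which take up maternal protein. In controls 1, 2 and 3, Lrp2 had 5399, 11004 and 9325, Cubn had 1201, 1286 and 1645, and Amn had 979.7, 995 and 1038. Among laminin genes, Lamb1 had 2363, 12319.6 and 9892 in controls 1, 2 and 3, Lama1 had 1928, 2501 and 3224, and Lamc1 had 495, 771 and 676. Among type IV collagen genes, Col4a1 had 2496, 3880.2 and 3283 in controls 1, 2 and 3, and Col4a2 had 1107, 1109.6 and 983. Sparc, a matrix glycoprotein, had 3504, 3421 and 3305 in controls 1, 2 and 3, and the collagen chaperone gene Serpinh1 had 948, 1838 and 1479 in controls 1, 2 and 3. The proteoglycan gene Srgn had 984, 2383 and 2279 in controls 1, 2 and 3, and the apolipoprotein gene Apoe had 1789.9, 4814 and 5527 in controls 1, 2 and 3. Some of these genes, among them Lrp2, are also known from trophectoderm.

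Markers of later stages were mostly dim. Of 14 measured genes of post-implantation epiblast and the germ layers, 2 exceeded the adult tissue level on both 430 2.0 arrays, Dnmt3b and Eomes, and Eomes also stands in the trophectoderm list. The next was Nodal (241, 405 and 398 in controls 1, 2 and 3), which exceeded the level of 219 on 430A. Of 9 measured genes of differentiated trophoblast, Plac1, an X-linked placental gene, was the only one to exceed it (2256, 3192 and 2367 in controls 1, 2 and 3). Ascl2 had 217, 93.6 and 28.2 in controls 1, 2 and 3 and Tpbpa, a marker of spongiotrophoblast, had 36.8, 20.1 and 30.8 in controls 1, 2 and 3. The median percentile of the 9 was 15.8 on 430A and 6.12 on 430 2.0. The 6.12 came from the mean of both replicates, and it was 17.7 without control 2 and 12.6 without control 3. The median percentiles of the post-implantation list were 26.1 on 430A and 32.3 on 430 2.0.

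Transcripts of the oocyte were dim, with a pair of exceptions. Of 18 measured members, 16 did not exceed the adult tissue level on both 430 2.0 arrays, and the median percentile was 32.8. Khdc3 was the brightest gene of 430B and stood at percentile 99.3 on 430 2.0, and Ooep, which works with it in the same maternal complex, had 9738 on 430B, against 3488 and 2761 in controls 2 and 3. The other components of that complex in the list, Tle6 (176, 121 and 222 in controls 1, 2 and 3) and Nlrp5 (40.1, 8.6 and 29.1 in controls 1, 2 and 3), and Padi6 (82.1 and 43.7 in controls 2 and 3), which is needed for it, did not exceed the level.

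None of the egg coat and oocyte growth factor genes exceeded the yardstick in any control. Of the zona pellucida genes, Zp1 had 101, 9.7 and 7.8 in controls 1, 2 and 3, Zp2 had 120, 9.7 and 48.9, and Zp3 had 168, 152 and 84.2. Of the growth factor genes, Gdf9 had 94.3, 164 and 71.2 in controls 1, 2 and 3, and Bmp15 had 7.0, 58.6 and 55.8. Mos, the kinase that holds the egg in metaphase, had 3.6, 8.1 and 7.6 in controls 1, 2 and 3, and H1f8, the oocyte linker histone, had 65.3, 12.3 and 8.8 in controls 1, 2 and 3. Of the oocyte transcription factor genes, Nobox had 24.6, 4.3 and 4.8 in controls 1, 2 and 3, and Figla had 99.0, 71.4 and 9.3. Zbed3 had 198, 70.0 and 75.6 and Oosp1 had 84.4, 20.3 and 40.3 in the same controls, while in controls 2 and 3 Zar1 had 125 and 159.8 and Nlrp14 had 35.6 and 13.9. Genes of the 2-cell stage, when the embryonic genome is first broadly transcribed, were likewise dim, with all 6 measured members under the median of all genes. Zfp352 had 112, 62.8 and 78.4 in controls 1, 2 and 3, Usp17la had 195, 99.4 and 57.0 and Spz1 had 8.5, 71.8 and 32.8. In controls 2 and 3, Duxf3, a member of the Dux family that activates 2-cell genes, had 53.1 and 35.8, Tcstv1 had 50.9 and 15.6, and Tcstv3 had 3.2 and 14.5.

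Markers of cells that could accompany collected embryos stayed mostly below the yardstick. None of 10 cumulus and granulosa cell genes, none of 13 uterine and oviduct epithelium genes and none of 11 blood and immune cell genes exceeded the adult tissue level on both 430 2.0 arrays. The median percentiles of these lists were 30.3, 38.7 and 22.1, against 25.8 for the adult tissue genes. With the mean of all probe sets of a gene they were 26.8, 18.2 and 26.7, against 24.9 for the adult tissue genes, so the side on which the uterine and blood lists lay changed with that choice. The brightest cumulus and granulosa genes were Foxl2 (1698 on 430B in control 1, against 112 and 114 in controls 2 and 3), Star (257, 76.0 and 59.5 in controls 1, 2 and 3) and Cyp11a1 (7.5, 47.5 and 65.0 in controls 1, 2 and 3). The brightest uterine and oviduct genes were Lif (316, 289.9 and 272 in controls 1, 2 and 3), Msx1 (604, 261 and 260.3 in controls 1, 2 and 3) and Ovgp1 (135, 124 and 121 in controls 1, 2 and 3). The brightest blood and immune genes were Csf1r (255, 125 and 99.9 in controls 1, 2 and 3), Cd74 (164, 48.9 and 85.5 in controls 1, 2 and 3) and Cd52 (22.8, 47.7 and 44.5 in controls 1, 2 and 3). On 430A, Star, Inha, Lif, Msx1 and Csf1r exceeded the level of 219 in control 1. No such level was set on 430B, where Foxl2 stood at percentile 84.5 of that array, and at percentile 65.1 when 430B was scaled to 430A and joined to it.

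The Y-linked markers ranked lower in control 1 than in the other controls. Xist, the noncoding RNA that coats the inactive X chromosome in females, was bright in every control (4182, 13022 and 11151 in controls 1, 2 and 3), at percentile 96.3 on 430A, against 98.0 on 430 2.0. Eif2s3y, a Y-linked translation factor gene, had 207 in control 1, against 2043 in control 2 and 2518 in control 3. It stood at percentile 49.7 on 430A and 87.2 on 430 2.0. Of the Y-linked genes of the demethylase families, Uty had 65.5, 167 and 265 in controls 1, 2 and 3, and Kdm5d had 75.9, 186 and 126.1, at percentiles 24.8 and 27.4 on 430A, against 56.2 and 52.6 on 430 2.0. Read on 430A, each of these 3 Y-linked genes had its lowest signal in control 1. On 430B, whose signals are on another scale, Uty had 497 and Eif2s3y had 29.5. With 430B scaled to 430A and joined to it, Uty stood at percentile 39.1 in control 1. The labels do not give the sex of the embryos, and array type and labelling assay changed together with the sample, so the part of each cannot be told apart.

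Controls 3 and 2, read on the same array type, had the closest ranks when each gene was given 1 signal. Over genes on the 430A array their Spearman correlation was 0.966, against 0.901 for 430A with 430 2.0. Over all probe sets the values were 0.893 and 0.895. The 430A array holds fewer probe sets than 430 2.0, so these last 2 values cover unlike sets and do not give an order. Across 18193 genes, the Spearman correlation of controls 3 and 2 was 0.942, and they shared 87 of their 100 brightest genes. These points share array type, labelling assay and probe sets. The 430A array of control 1 and the 430 2.0 arrays gave 0.901 across 12393 genes and shared 78 of the 100 brightest, or 0.914 and 76 when the same probe set was read on both. The 430B and the 430 2.0 arrays gave 0.689 across 9607 genes with 23 shared when each array type supplied its own brightest probe set, and 0.850 with 75 shared for the same probe set. The brightest probe set differed between 430B and 430 2.0 for 3236 of the 9607 genes, and between 430A and 430 2.0 for 2115 of the 12393. Genes are not independent replicates, and these values describe the arrays.

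Agreement depended on signal. The SD of a single replicate was taken as the SD of the log2 difference between controls 3 and 2, divided by the square root of 2. In the brightest decile of genes, with a median signal of 5732, this SD was 0.18 on the log2 scale. In the next decile it was 0.20. In the decile just above the median of all genes it was 0.37, and just below it 0.52. In the last decile but one it reached 1.64, so a dim gene's signal could differ several-fold between replicates. Between array types, by the same probe set, the median absolute gap in percentile was 1.28 for 430A and 1.32 for 430B in the brightest decile. It was largest in the lower middle of the range, at 11.1 for 430A and 13.7 for 430B.

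**Figure D4:**
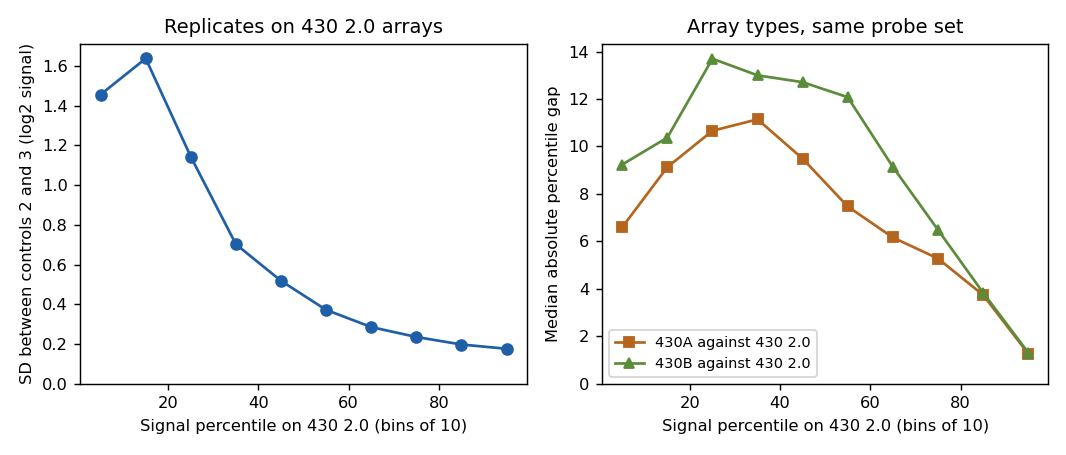
Left, SD of a single replicate (log2 signal) in 10 bins of signal percentile on 430 2.0. It is the SD of the difference between controls 3 and 2 divided by the square root of 2. Right, median absolute difference in percentile between the 430A (squares) or 430B (triangles) array of control 1 and the 430 2.0 arrays, by the same probe set. Both measures are lowest in the brightest bin, at 0.18 for the SD and at 1.28 and 1.32 for the percentile gaps.

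Single genes departed from the shared order. The largest gap in favour of 430A by the same probe set was that of Tff1, a secreted trefoil peptide of the stomach, with 1395 in control 1, against 282 and 333 in controls 2 and 3, a gap of 33.3 percentiles. Egfr, the receptor for epidermal growth factor, had 845 in control 1, against 133 and 216, a gap of 32.3. Pmf1, Cysrt1, Bcl9l, Ptms, 1700037H04Rik and Arhgef1 followed with gaps of 27.8 to 32.2. In the other direction, Eif2s3y had the largest gap, -32.1 percentiles. Jpt1 had 466 in control 1, against 6428 and 9755 in controls 2 and 3, and Ddx49, an RNA helicase gene, had 184, against 1589 and 1342. BC004004, Zfand1, Efemp1, Cip2a and Riok2 had gaps of -27.3 to -26.0.

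The 430B array gave wider gaps than 430A at its extremes. Map4, a microtubule-associated protein, had 81.9 on 430B, against 576 and 200.1 in controls 2 and 3, a gap of -58.3 percentiles, and its own 430 2.0 values lay far apart. The splicing regulator gene Tra2a had 205 on 430B, against 657 and 955, a gap of -50.5. Dus2, Vegfc, Srsf11, Smad7, Capg and Dclre1b had gaps of -52.2 to -34.6. In favour of 430B, the potassium channel gene Kcnk12 had 1407, against 20.2 and 50.3, a gap of 44.1, and Lynx1, Cox8c, Clca4a, Gm33409, Ms4a15, Acad10 and Fam71d had gaps of 32.9 to 43.9. All 8 of these genes were under the adult tissue level on both 430 2.0 arrays by that probe set. Array type, labelling assay and sample change together in these gaps and cannot be told apart.

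Between the 2 replicates on the same array type few genes of higher signal differed. Of 8710 genes above the median on both arrays, 83 differed by more than 1 on the log2 scale, and the SD of the difference was 0.35. Map3k12, a kinase gene known from neurons, had 462 in control 3 and 124 in control 2 (log2 difference 1.90). Mymx, a muscle fusion peptide gene, had 796 in control 3 and 271 in control 2 (1.55). Me2, a mitochondrial malic enzyme gene, the Y-linked Usp9y and the lipid receptor gene S1pr1 followed with differences of 1.51 to 1.54. Lower in control 3 was Wdr48, a cofactor of deubiquitinases, with 257 in control 3 and 985 in control 2 (-1.94). Cfp, Kcnj11, Safb and Wars2 had differences of -1.49 to -1.25. All 10 genes were of modest signal, at most 1292, and none was a marker of the 3 lineages.

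Promoter sequence was set beside signal, since bright and dim genes are known to differ in promoter type. Of the 18193 genes, 14452 had a RefSeq promoter window (mouse build GRCm38.p6), read from 250 bases before to 50 after the annotated start, and the first listed window was taken where a gene had several. In the brightest decile of genes, the median ratio of observed to expected CpG dinucleotides was 0.84, against 0.29 in the dimmest decile and 0.67 over all windows. The median GC content was 61.0% in the brightest decile, against 51.3% in the dimmest and 58.7% over all. Motifs were searched as exact letters, each on its own, on both strands except for TATAAA, which was searched on the gene's strand. CCGGAAGT, of the type that ETS factors bind, was in 10.99% of windows in the brightest decile, against 1.004% in the dimmest and 6.14% over all. GCATGCGC, of the type that NRF1 binds, was in 6.35%, against 1.65% and 4.27%, and the CG-rich element TCTCGCGA was in 3.84%, against 0.50% and 1.70%.

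TATAAA ran the other way, with 4.37% of windows in the brightest decile, against 11.4% in the dimmest and 6.50% over all. The trends were not strictly graded, since CCGGAAGT peaked at 12.2% in the 80th to 90th percentile and TATAAA was lowest, at 3.32%, in the 70th to 80th. Among the 100 brightest genes, 79 had a window, and their median CpG ratio was 0.91. TATAAA was in 6 of the 79 (7.59%), CCGGAAGT in 6 (7.59%), GCATGCGC in 7 (8.86%) and TCTCGCGA in 5 (6.33%).

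**Figure D5:**
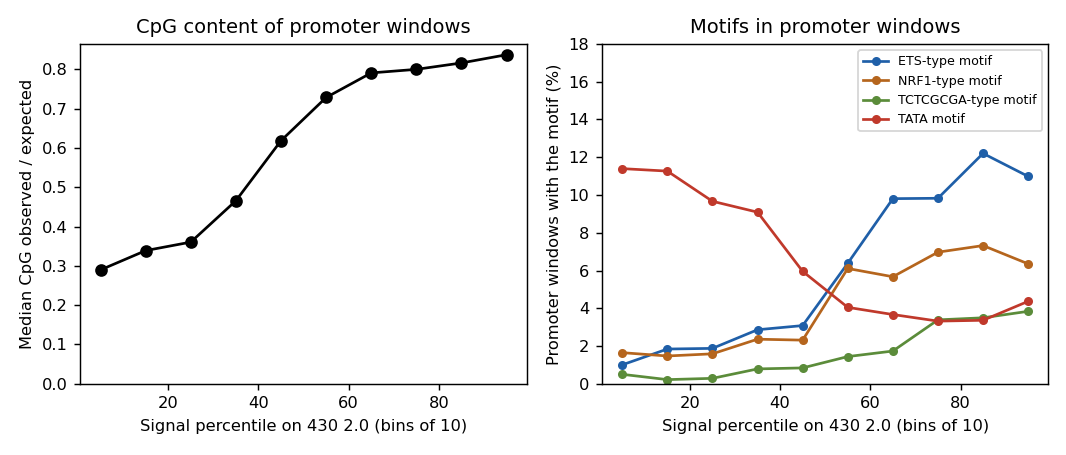
Left, median ratio of observed to expected CpG in promoter windows of 300 bases, in 10 bins of signal percentile on 430 2.0. Right, percentage of windows in each bin holding an exact match to 1 of 4 motifs. The CpG ratio runs from 0.29 in the dimmest bin to 0.84 in the brightest, and the TATA motif is the only 1 of the 4 that is more frequent in the dimmest bin than in the brightest.

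For each of the 3 CG-containing motifs, a bright gene with a match in the printed stretch is given, together with both trophectoderm keratins. The genes chosen for a motif are not shown to be the brightest holding it in the full window of 300 bases. Each stretch has 150 bases, 100 of them before the annotated start, 5′ to 3′ on the gene's strand, and capitals mark the motif match, with the start base counted as position 1 and the base before it as -1. Rps18 (chr17:33955616-33955765, minus strand) holds CCGGAAGT from position -75 relative to the start. Akr1a1 (chr4:116651625-116651774, minus strand), an aldo-keto reductase gene at rank 63, holds GCGCATGC, the other strand of GCATGCGC, from position 40. Rpl7a (chr2:26910707-26910856, plus strand) holds TCTCGCGA from position -52. Krt8 (chr15:102004293-102004442, minus strand) holds TATAAA from position -1, and Krt18 (chr15:102028116-102028265, plus strand) holds none of the 4 in this stretch. A match is a description of letters in this window and not a binding site.
Rps18: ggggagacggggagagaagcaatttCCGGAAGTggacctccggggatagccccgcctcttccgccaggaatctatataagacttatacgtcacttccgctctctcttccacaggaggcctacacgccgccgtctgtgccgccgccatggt
Akr1a1: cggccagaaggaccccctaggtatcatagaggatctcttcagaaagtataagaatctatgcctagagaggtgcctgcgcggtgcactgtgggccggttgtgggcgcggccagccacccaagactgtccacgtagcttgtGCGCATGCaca
Rpl7a: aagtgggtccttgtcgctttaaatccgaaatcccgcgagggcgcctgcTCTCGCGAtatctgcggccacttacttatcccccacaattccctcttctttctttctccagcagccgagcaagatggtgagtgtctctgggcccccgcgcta
Krt8: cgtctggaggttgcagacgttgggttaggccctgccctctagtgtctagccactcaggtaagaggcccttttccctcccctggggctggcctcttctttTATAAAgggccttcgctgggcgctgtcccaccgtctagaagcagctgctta
Krt18: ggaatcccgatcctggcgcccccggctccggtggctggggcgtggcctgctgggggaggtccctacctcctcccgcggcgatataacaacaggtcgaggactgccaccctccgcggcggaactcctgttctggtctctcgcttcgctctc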

How the data were processed

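The authors deposited 1 signal intensity for every probe set, on a linear scale. They had scaled each control array to a common mean with 2 percent trimmed at each end, as checked on the values. Per the labels, control 1 was labelled by another assay than controls 2 and 3. How background was corrected and probes were summarised, and with which software, is not given in the sources used here. Of 45037 probe sets on 430 2.0 without Affymetrix control probe sets, the platform annotation gave 1 gene for 34945, more than 1 for 932 and none for 9160. Symbols were updated through Entrez identifiers to RefSeq (GRCm38.p6).

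The log2 of the deposited intensity was taken with no pseudocount or filter, and each gene took its brightest probe set on each of 3 array types. Values were computed in Python 3.11.15 with pandas 2.3.3 and numpy 2.4.6, drawn with matplotlib 3.10.9, and the ranking was tested on simulated data. With 1 group there was no test between groups, and precision is limited by the number of arrays.

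The text names genes by a rule. It takes the 25 brightest genes per array type, the 2 brightest and the dimmest of each functional list, all measured trophectoderm, epiblast, primitive endoderm, oocyte, 2-cell and sex-linked markers, and the 3 brightest of other marker lists. Added to these were the 8 largest rank gaps in each direction between array types, among genes above the 75th percentile on one of them, and the 5 largest differences in each direction between controls 3 and 2 above the median. Rps16, Rps27, Cox4i1, Inha and the genes of the printed promoters were named after their values were seen. The members and lists were chosen with earlier results of these data known.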

Additional observations from a re-analysis of the deposited data

How the results depend on the processing

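The alternatives changed 1 choice at a time, except that joining 430B, scaled to 430A, to that array also widened the genes compared to 18193 from 12393. No correlation changed sign, but some orders turned. The primitive endoderm list lay above the epiblast list with the joined arrays. The epiblast list lay level with the trophectoderm list with the mean of all probe sets. Over all probe sets, the correlation of 430A with 430 2.0 covers fewer probe sets than that of controls 3 and 2, so these 2 values give no order. The Spearman correlation of controls 3 and 2 (0.942) was 0.922 with the mean of all probe sets of a gene, 0.938 without the _x_at and _s_at probe sets, which can match several transcripts, 0.966 over genes on the 430A array and 0.893 over all probe sets. That of 430A with 430 2.0 (0.901) was 0.914 with the same probe set on every array, 0.863 with the mean, 0.895 without _x_at and _s_at, 0.895 over all probe sets, and 0.912 with 430B scaled to 430A and joined to it, a setting chosen after seeing the data. Leaving out control 2 or 3 gave 0.895 to 0.895. That of 430B with 430 2.0 (0.689) was 0.850 with the same probe set, 0.746 with the mean, 0.677 without _x_at and _s_at, 0.497 over genes on 430A, 0.785 over all probe sets, and 0.671 to 0.678 without control 2 or 3. Ribosomal protein genes were 31% of the 100 brightest, or 24% with the mean and 22% without _x_at and _s_at, 48% of the 50 brightest and 17.5% of the 200 brightest, and 30% to 32% without control 2 or 3. The brightest genes shared by 430A and 430 2.0 stayed between 71% and 79%. The median percentile of the trophectoderm list (93.3) was 89.6 with the mean, 94.4 without _x_at and _s_at, 90.6 over genes on 430A, 95.6 over all probe sets, 93.0 with the joined arrays, and 93.2 to 93.2 without control 2 or 3. That of the epiblast list (83.0) was 89.6, 86.8, 79.6, 89.5 and 83.6 in the same order, and 82.4 to 83.1 without control 2 or 3. That of the primitive endoderm list (82.1) was 87.1, 78.9, 76.8, 88.9 and 85.5, and 80.3 to 82.4. Of 63 recomputed medians of other lists, 7 moved by more than 10 percentiles, by at most 20.5. The largest move was that of the uterine and oviduct list, with 38.7 as reported and 18.2 with the mean. The differentiated trophoblast list (6.12) was 12.6 to 17.7 without control 2 or 3 and 23.1 with the joined arrays, and the oocyte list (32.8) was 18.9 over genes on 430A. The causes of these moves were not tested. Leaving out control 1 removes the 430A and 430B values and gives no value. No paired analysis was possible because only the control group enters. Signals near the adult tissue level are limited by the replicate SD of dim genes, and 2 arrays of 1 type do not measure the spread of a population.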
